A study of Mus musculus with 6 samples.

Results

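The cell cycle genes described here are 44 of the 22623 genes counted in single nuclei of TC1 tumors, 20 of them on the S-phase side and 24 on the G2/M side. They were taken by symbol from the gene lists of all 6 libraries, and each symbol was found in every library. TC1 is a mouse lung tumor line, here grown under the skin, and RNA of single nuclei (snRNA-seq) was counted as unique molecular identifiers (UMIs, the captured molecules). Of the 6 libraries, 3 came from knockout (KO) and 3 from control (CO) mice, and the study asked how loss of MCT2, a monocarboxylate transporter encoded by Slc16a7, in the host changes the cells of a tumor. The mice of both groups carried the MCT2 loxP/loxP alleles and a Cre transgene (mCre-Tg) on a C57BL/6 background. KO mice were given tamoxifen daily for 5 days at 8 weeks of age to delete the gene, and CO mice were given vehicle, so the effects of tamoxifen and of active Cre cannot be told apart from the loss of MCT2. TC1 cells were injected 2 days after the last dose and grew for 24 days, so deletion was induced in host cells and not in the tumor cells themselves. The labels name the tissue as lung, whereas the methods describe subcutaneous tumors. The promoter that drives the Cre is not given in the sources used here. The study describes the 3 libraries of each group as biological replicates.

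Cells copy their DNA in S phase and then pass through G2 into mitosis (M), in which the copies are pulled apart. Before and during S phase, transcription factors of the E2F family switch on genes for licensing replication origins, unwinding DNA, supplying nucleotides and building new strands. Genes for mitotic kinases, cyclins, the spindle and the kinetochore are switched on later, largely through promoter elements called the cell cycle genes homology region (CHR) and the CCAAT box. In a tumor the malignant cells divide, and macrophages and lymphocytes of the host can divide as well.

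The promoters of the members show this division in sequence, and 2 of each side are printed, chosen for the number of motif matches, with Mcm3 tied with Mcm5 and Mcm6 at 5 matches each. RefSeq promoter windows of 300 bases (build GRCm38.p6), from 250 bases before to 50 after the start site, were found for 38 of the 44 members and gave 40 windows. Both strands were searched for TTTNNCGC (E2F-type), for TTTGAA or TTCGAA (CHR) and for CCAAT. The windows shown lie at chr5:138171834-138172133 (Mcm7), chr1:20820263-20820562 (Mcm3), chr11:99024140-99024439 (Top2a) and chr10:69352863-69353162 (Cdk1), all on the minus strand of protein-coding genes. They are written 5′ to 3′, and capitals mark the motif matches.
Mcm7: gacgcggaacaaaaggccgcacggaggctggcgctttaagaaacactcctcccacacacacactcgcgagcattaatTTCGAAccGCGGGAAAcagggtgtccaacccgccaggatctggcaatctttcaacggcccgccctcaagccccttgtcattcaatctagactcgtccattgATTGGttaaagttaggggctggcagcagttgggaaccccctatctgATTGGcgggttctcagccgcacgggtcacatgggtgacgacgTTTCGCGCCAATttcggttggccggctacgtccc
Mcm3: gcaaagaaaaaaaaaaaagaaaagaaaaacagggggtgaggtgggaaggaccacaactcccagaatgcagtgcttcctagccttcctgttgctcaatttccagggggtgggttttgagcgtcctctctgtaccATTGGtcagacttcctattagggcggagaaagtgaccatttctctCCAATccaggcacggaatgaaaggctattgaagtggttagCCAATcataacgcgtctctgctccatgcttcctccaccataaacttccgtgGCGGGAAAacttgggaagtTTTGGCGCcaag
Top2a: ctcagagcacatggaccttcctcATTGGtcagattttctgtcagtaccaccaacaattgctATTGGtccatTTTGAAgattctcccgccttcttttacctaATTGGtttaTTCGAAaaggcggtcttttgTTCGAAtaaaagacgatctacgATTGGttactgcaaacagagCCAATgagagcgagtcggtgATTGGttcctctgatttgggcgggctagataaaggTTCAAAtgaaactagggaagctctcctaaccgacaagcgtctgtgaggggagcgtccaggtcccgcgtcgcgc
Cdk1: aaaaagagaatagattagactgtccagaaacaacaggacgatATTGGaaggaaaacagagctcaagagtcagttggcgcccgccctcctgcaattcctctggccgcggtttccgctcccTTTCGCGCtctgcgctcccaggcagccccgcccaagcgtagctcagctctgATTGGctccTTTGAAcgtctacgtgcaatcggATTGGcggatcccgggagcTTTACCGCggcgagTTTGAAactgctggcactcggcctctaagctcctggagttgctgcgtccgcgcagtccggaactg
Mcm7 and Mcm3, subunits of the helicase that unwinds DNA, hold 2 E2F-type matches each, and the second one of Mcm7 at position +16 overlaps the CCAAT match that begins at +23. Top2a, the topoisomerase that untangles chromosomes, holds 4 CHR and 6 CCAAT matches and no E2F-type match. Cdk1, the kinase that drives entry into mitosis, holds 2 E2F-type, 2 CHR and 3 CCAAT matches. E2F-type letters were in 9 of 18 S-side windows (50.0%) and 2 of 22 G2/M-side windows (9.09%), against 5.17% of 32851 mouse promoter windows of the same length. CHR letters were in 3 of 18 S-side windows (16.7%) and 19 of 22 G2/M-side windows (86.4%), against 19.2% of all windows. CCAAT letters were common on both sides, with 15 of 18 (83.3%) and 17 of 22 (77.3%) against 37.4% of all windows. A match is a description of these letters, and binding was not measured.

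Between 1763 and 4587 nuclei per library were kept, 17514 in all, from libraries of 13252572 to 22057084 UMIs. Barcodes were shared by at least 2 libraries in 61 cases. Nuclei were sorted by counts of marker genes into tumor-like (9012), macrophage-like (4022) and T/NK-like (346) classes, and 4092 fitted no class. Macrophage markers averaged 6.93 to 7.96 UMIs per 1000 in groups of macrophage-like nuclei and 0.391 to 0.517 in groups of tumor-like nuclei. Tumor markers stood at 16.4 to 31.4 UMIs per 1000 in tumor-like nuclei. In macrophage-like nuclei CO replicates 1 to 3 held 0.6, 0.693 and 1.24 tumor marker UMIs per 1000, and KO replicates 1 to 3 held 0.687, 3.25 and 3.02. KO replicates 2 and 3 thus stood apart, with 10.4% and 11.4% of the tumor-like level against 3.66 to 4.95% in the other libraries. The methods state that some of the samples were washed further during isolation of nuclei, without saying which, and the part of washing in these values was not tested. Over all kept nuclei Slc16a7 had 127, 159 and 164 UMIs in CO replicates 1 to 3 and 264, 106 and 352 in KO replicates 1 to 3. It did not pass the test in tumor-like nuclei (log2 fold change KO over CO 1.09, SE 0.57, edgeR adjusted p 0.595), where the cells keep the gene, nor in macrophage-like nuclei of the host (0.28, SE 0.31, edgeR adjusted p 0.925), where KO was not the lower group either. Counts of the targeted gene thus showed no lower level in KO as a group. Deletion of the gene itself was not measured, and whether these counts would register it was not tested. All directions given here are between the libraries labelled KO and CO.

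Tumor-like nuclei held more cell cycle UMIs than macrophage-like nuclei on both sides, and T/NK-like nuclei also lay above macrophage-like nuclei. To compare classes of unequal depth, each nucleus was thinned at random to 1000 UMIs, and shallower nuclei were left out, which kept 8389 tumor-like, 2542 macrophage-like and 175 T/NK-like nuclei. In tumor-like nuclei the 20 S-side genes together had 2.27, 2.31 and 2.11 UMIs per 1000 in CO replicates 1 to 3 and 2.30, 2.56 and 2.44 in KO replicates 1 to 3. In macrophage-like nuclei the corresponding values were 1.28, 1.31 and 1.45 for CO and 1.38, 1.31 and 1.3 for KO, below the tumor-like value of the same library in 6 of 6 libraries and with no overlap between the classes. The mean log2 ratio of macrophage-like to tumor-like nuclei was -0.80 ± 0.15 (SD, n = 6 libraries), which is 0.575 times the tumor-like level (exact sign-flip test over libraries, two-sided, p 0.03125, adjusted p 0.0469 over 6 relations). This p is the smallest that 6 libraries can give.

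**Figure D1:**
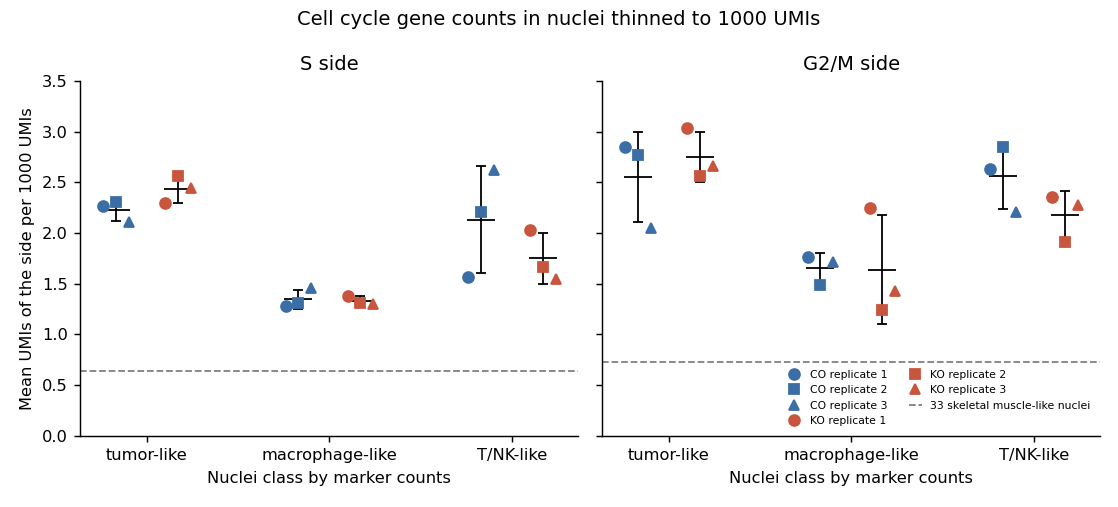
Mean UMIs of the 20 S-side genes (left) and the 24 G2/M-side genes (right) per 1000 UMIs in thinned nuclei (vertical axis), by class of nuclei. Each point is a library, the horizontal bar and whiskers are the mean ± SD of the 3 libraries of a group, and the dashed line is the level of 33 skeletal muscle-like nuclei. On the S side every tumor-like library, from 2.11 to 2.56, lies above every macrophage-like library, from 1.28 to 1.45.

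In tumor-like nuclei the 24 G2/M-side genes stood at 2.85, 2.77 and 2.05 UMIs per 1000 for CO replicates 1 to 3 and at 3.03, 2.56 and 2.66 for KO replicates 1 to 3. In macrophage-like nuclei they stood at 1.77, 1.49 and 1.72 for CO and at 2.25, 1.24 and 1.43 for KO. The macrophage-like value was the lower one in 6 of 6 libraries, though the value of KO replicate 1 exceeded the tumor-like value of CO replicate 3. The log2 ratio was -0.70 ± 0.31, or 0.615 times the tumor-like level (exact sign-flip test, adjusted p 0.0469). Without KO replicates 2 and 3 the log2 ratios were -0.73 on the S side and -0.57 on the G2/M side, with only 4 libraries, too few for the test to pass. At a depth of 2000 UMIs, where 36 to 146 macrophage-like nuclei per library remained, the ratios of -0.71 and -0.41 no longer passed (exact sign-flip test, adjusted p 0.188 and 0.281).

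In T/NK-like nuclei, of which only 12 to 40 per library could be thinned, the S side stood at 1.57, 2.21 and 2.62 UMIs per 1000 for CO and at 2.03, 1.67 and 1.55 for KO. Their G2/M side stood at 2.63, 2.85 and 2.21 for CO and at 2.35, 1.92 and 2.28 for KO. Both sides were higher than in macrophage-like nuclei in 6 of 6 libraries, by 1.42 times (log2 0.51 ± 0.25) on the S side and 1.45 times (log2 0.54 ± 0.30) on the G2/M side (exact sign-flip test, adjusted p 0.0469 for both). At 500 UMIs, which kept all 346 T/NK-like nuclei, the S-side log2 ratio was 0.28 and did not pass (exact adjusted p 0.156). At 2000 UMIs, which left 2 to 8 T/NK-like nuclei per library, neither side passed, and the log2 ratios were 0.12 on the S side and -0.0037, the other direction, on the G2/M side. Against tumor-like nuclei the T/NK-like log2 ratios were -0.29 ± 0.38 on the S side, lower in 5 of 6 libraries, and -0.16 ± 0.21 on the G2/M side, lower in 4 of 6, and neither passed (exact adjusted p 0.156). The T/NK-like S side did pass against tumor-like nuclei at 500 UMIs, with -0.44 (exact adjusted p 0.0469).

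The balance of the sides did not pass a test between any pair of classes. The difference in log2 S to G2/M ratio was -0.10 ± 0.17 for macrophage-like minus tumor-like nuclei, -0.13 ± 0.28 for T/NK-like minus tumor-like and -0.03 ± 0.41 for T/NK-like minus macrophage-like nuclei (exact sign-flip test, adjusted p 0.469, 0.469 and 0.938). Within tumor-like nuclei the log2 S to G2/M ratio itself ranged from -0.40 in KO replicate 1 to 0.04 in CO replicate 3, the only library in which the S side was the higher one.

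Free RNA can give counts in nuclei that do not divide. Skeletal muscle-like nuclei, which should lack these messengers, were used to gauge the background from any source. Of the 33 deep enough to be thinned, 18 came from CO replicate 3 and none from CO replicate 1, so the pooled values do not stand for the background of each library. In these nuclei, with a median of 1958 UMIs, the S side stood at 0.636 and the G2/M side at 0.727 UMIs per 1000 (21 and 24 UMIs). Tumor markers stood at 1.48 UMIs per 1000 in them, and the rule for this class set no limit on tumor markers. The parts of free RNA and of doublets with tumor nuclei in these counts were not tested. At least 2 S-side UMIs were found in 3 of these nuclei (9.09%, exact binomial interval 1.92 to 24.3%) and at least 2 G2/M-side UMIs in 5 (15.2%, 5.11 to 31.9%). Both sides reached 2 UMIs in 0 of 33, which allows a share of up to about 9.09% by the approximation of 3 divided by 33, not by an exact interval. These intervals cover counting error only. Nuclei with at least 2 S-side UMIs made up 54.6 to 64.9% of tumor-like, 30.3 to 36.2% of macrophage-like and 36.7 to 66.7% of T/NK-like nuclei across the libraries. Nuclei with at least 2 G2/M-side UMIs made up 41.0 to 54.8%, 26.3 to 42.8% and 37.5 to 57.6%. The median depth before thinning was 4321 to 7818.5 UMIs in tumor-like, 1295 to 1628 in macrophage-like and 1271 to 1706.5 in T/NK-like nuclei.

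Tumor-like nuclei often carried both sides together. Both reached 2 UMIs in 32.7, 32.7 and 24.6% of tumor-like nuclei for CO replicates 1 to 3 and in 33.3, 32.7 and 32.4% for KO replicates 1 to 3. The product of the separate shares, which independent sides would give, was 31.1, 31.5 and 22.4% for CO and 33.9, 30.3 and 31.4% for KO. The observed share was thus slightly above the product in 5 of 6 libraries. In macrophage-like nuclei both were reached in 8.08 to 19.2% of nuclei, against products of 7.96 to 15.5%, and the observed share was above the product in 6 of 6 libraries.

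To see whether single members follow their side, each tumor-like nucleus was called S-only (2428), G2/M-only (1571), both (2693) or neither (1697), and each gene was left out of the call that its own values were set beside. All 24 G2/M-side members were higher in G2/M-only than in S-only nuclei, in 6 of 6 libraries each. Top2a stood at 202 ± 61.7 CPM in S-only and 744 ± 199.7 in G2/M-only nuclei (SD over 6 libraries), a ratio of 3.68. CPM is a gene's UMIs scaled to a common library total. Mki67, which coats mitotic chromosomes and is a common proliferation marker, stood at 63.7 ± 12.8 against 217 ± 41.5 CPM, a ratio of 3.41. The ratios ran from 2.08 for Cdk1 (82.1 against 171 CPM) to 7.96 for Hmmr, a spindle assembly factor (16.3 against 130 CPM), and Bub1, a kinase of the spindle checkpoint, was close to that with 7.89.

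On the S side 16 of 20 members were higher in S-only nuclei, 12 of them in 6 of 6 libraries. These 12 were the helicase subunits Mcm2 to Mcm6, the sliding clamp Pcna, the origin factors Cdc6 and Dtl, the polymerase and primase subunits Pola1 and Prim1, the thymidylate synthase Tyms and the chromatin assembly subunit Chaf1b. Pola1 stood at 766 ± 291 CPM in S-only and 405 ± 152 in G2/M-only nuclei, Mcm6 at 178 ± 19.99 and 78.3 ± 19.4, and Chaf1b at 46.0 ± 12.01 and 14.6 ± 10.9. The other 4 members were higher in G2/M-only nuclei, namely the helicase Brip1 (ratio 1.38, 5 of 6 libraries), the ribonucleotide reductase subunits Rrm2 (1.26, 5 of 6) and Rrm1 (1.19, 5 of 6) and Cdc45 (1.08, 4 of 6), which joins the helicase at firing origins. Members named in this and the preceding paragraph were singled out after their values were seen.

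**Figure D2:**
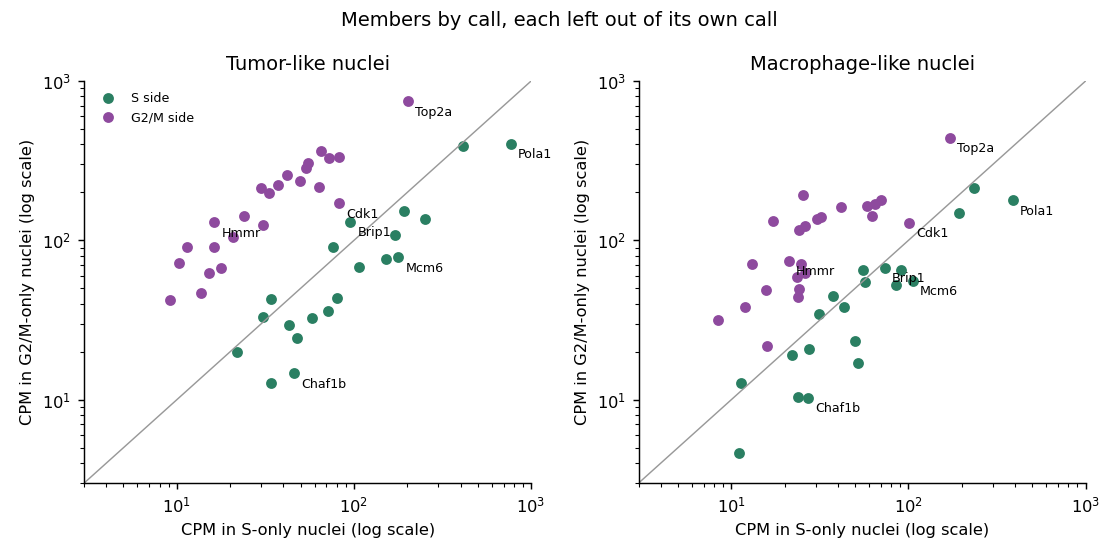
Level of each of the 44 members in S-only (horizontal axis) and G2/M-only nuclei (vertical axis), in CPM on log scales, for tumor-like (left) and macrophage-like nuclei (right). Each point is the mean of 6 libraries for a member left out of its own call, and the line marks equal levels. All 24 G2/M-side points lie above the line in both panels, and 16 of 20 S-side points lie below it in each.

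In macrophage-like nuclei (503 S-only, 541 G2/M-only, 371 both, 1127 neither) the same counts of members pointed to their own side, 16 of 20 and 24 of 24, with a wider spread. Only Pola1 was higher in S-only nuclei in 6 of 6 libraries on the S side (387 ± 305 against 179 ± 91.7 CPM), and 12 of 24 G2/M-side members held their direction in every library. Top2a stood at 171 ± 67.1 CPM in S-only and 441 ± 136 in G2/M-only macrophage-like nuclei. Most members were highest in macrophage-like nuclei with both sides, 18 of 20 on the S side and 18 of 24 on the G2/M side, whereas in tumor-like nuclei this held for 8 of 20 and 2 of 24. Tumor markers in the macrophage-like nuclei stood at 1.52 UMIs per 1000 in S-only, 1.72 in G2/M-only and 1.58 in both, against 1.56 in neither, and macrophage markers at 7.67, 7.09 and 6.93 against 7.96. These differences between calls were not tested.

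Genes of each phase that did not enter the calls were also set beside them, without a test. In tumor-like nuclei 50 further G2/M genes summed to 3.25 UMIs per 1000 in S-only, 7.75 in G2/M-only, 7.39 in both and 2.73 in neither. A further 36 S-phase genes summed to 3.47, 2.61, 3.63 and 2.16. In macrophage-like nuclei the G2/M genes stood at 2.88, 4.75, 6.24 and 2.53 and the S-phase genes at 2.03, 1.66, 2.91 and 1.21 in the same order. A list of 23 regulators, such as G1 cyclins and E2F factors, ran from 1.38 in neither to 1.95 in both in tumor-like nuclei.

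Tumor-like nuclei with G2/M-side counts had a higher median total of UMIs in 6 of 6 libraries, though the adjusted p did not pass. Their median total before thinning was 7690 ± 1757 UMIs (SD, n = 6 libraries) where at least 2 G2/M-side UMIs remained after thinning, and 5018 ± 1213 where none did. The ratio was 1.64, 1.56 and 1.44 for CO replicates 1 to 3 and 1.58, 1.53 and 1.48 for KO replicates 1 to 3, with a mean of 1.54 (exact sign-flip test, p 0.03125, adjusted p 0.0625 over 4 relations). At 500 UMIs, which also takes in the shallowest nuclei, the log2 ratio was 0.21 in place of 0.62 (exact adjusted p 0.75). The S side had a smaller ratio of 1.2 (1.03 to 1.34 across libraries, exact adjusted p 0.0625). In macrophage-like nuclei the ratios were 0.949 for the S side and 0.964 for the G2/M side, higher in 3 of 6 libraries each (exact adjusted p 0.333 and 0.625). Nuclei of high UMI count can be doublets, and their part in these ratios was not tested beyond the removal of the nuclei with the highest doublet scores.

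**Figure D3:**
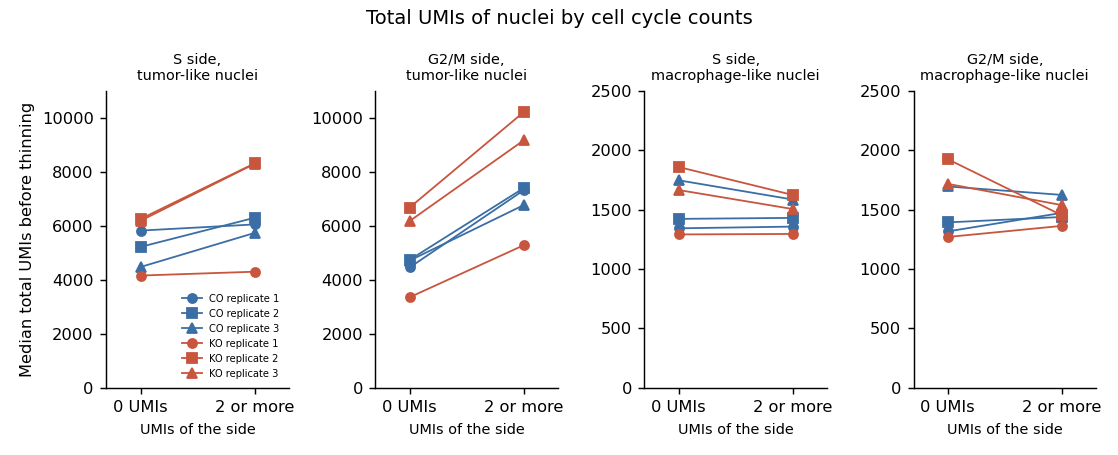
Median total UMIs per nucleus before thinning (vertical axis, with separate scales for tumor-like and macrophage-like panels) in nuclei with 0 and with at least 2 UMIs of a side after thinning to 1000. Each line joins the values of a library, and blue marks CO and red KO. On the G2/M side all 6 tumor-like lines slope upwards, from a mean of 5018 to 7690 UMIs.

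Gene by gene, UMIs summed over the nuclei of a class were compared between classes with the library as a block. A gene was called different at an adjusted p of at most 0.05 and a log2 fold change of at least 0.58 in size. In macrophage-like against tumor-like nuclei, 25 of the 44 members were lower and 0 higher, 8 on the S side and 17 on the G2/M side, where 52.6% of 11807 genes were called, 27.1% lower and 25.5% higher. The median log2 fold change was -0.46 on the S side and -0.68 on the G2/M side, beside -0.01 over all genes. Leaving out a library gave 21 to 28 members.

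The helicase subunits Mcm2 to Mcm7 had log2 fold changes of -0.55 (Mcm6) to 0.01 (Mcm2), and none met the fold threshold. Mcm6, Mcm7 (-0.47) and Mcm4 (-0.45) were nevertheless lower in 6 of 6 libraries each (edgeR adjusted p 0.000107, 0.00457 and 0.0161), whereas Mcm2, Mcm3 and Mcm5 did not pass. For Mcm7 and Mcm4 the ranges of the classes overlapped. Cdc45, which the loaded helicase takes up at firing, was called lower (-1.42, SE 0.17). Prim1, the primase that lays down RNA primers, had the lowest value of all members. In tumor-like nuclei it stood at 199, 208 and 168 CPM for CO replicates 1 to 3 and at 197, 139.5 and 145 for KO replicates 1 to 3. In macrophage-like nuclei it stood at 66.4, 68.4 and 68.3 CPM for CO and at 61.9, 26.2 and 51.9 for KO. The classes did not overlap, and Prim1 was lower by -1.59 on the log2 scale (SE 0.11, edgeR quasi-likelihood test, adjusted p 3.24e-09). Pola1 (-1.21, SE 0.10), the catalytic subunit of the polymerase that works with Prim1, was lower too, as were Dtl (-1.26), Atad2, a chromatin ATPase (-1.13), Tyms (-1.07), Brip1 (-0.70) and Cdc6 (-0.70). Pcna lay on the other side, at 130 ± 25.9 CPM in tumor-like and 179 ± 34.2 in macrophage-like nuclei, higher in 5 of 6 libraries (log2 0.45, SE 0.13, edgeR adjusted p 0.0074) but short of the fold threshold. Helb, a DNA helicase, was the next highest with 0.17 (SE 0.16).

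On the G2/M side the mitotic kinases and cyclins differed least, with 2 of 7 called, Ccnb2 (-0.66) and the spindle pole kinase Aurka (-0.72). Cdk1 stood at 114 ± 36.6 CPM in tumor-like and 114 ± 27.6 in macrophage-like nuclei (log2 0.01, SE 0.10). All 5 kinetochore and checkpoint members were called lower, from Cenpe (-0.61) to Knl1 (-0.99), the scaffold of the outer kinetochore. All 6 spindle members were called lower as well, with Tpx2, an activator of Aurka, at -1.11, Nusap1 at -0.99 and the motor Kif11 at -0.93. Among the cytokinesis members Ect2, which sets the cleavage plane, had the lowest value (188 ± 27.9 against 71.5 ± 11.8 CPM, log2 -1.42, SE 0.11), followed by the furrow scaffold Anln (-1.07) and Kif23 (-0.92). Top2a was 488 ± 113 CPM in tumor-like and 267 ± 51.0 in macrophage-like nuclei (log2 -0.86, SE 0.12, edgeR adjusted p 1.57e-05), lower in 6 of 6 libraries. Mki67 was lower in 6 of 6 libraries too, but its log2 fold change of -0.55 missed the fold threshold. The remaining called members, Cenpf, Bub1, Bub1b, Kif15, Aspm and Hmmr, lay between -0.71 and -0.64.

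**Figure D4:**
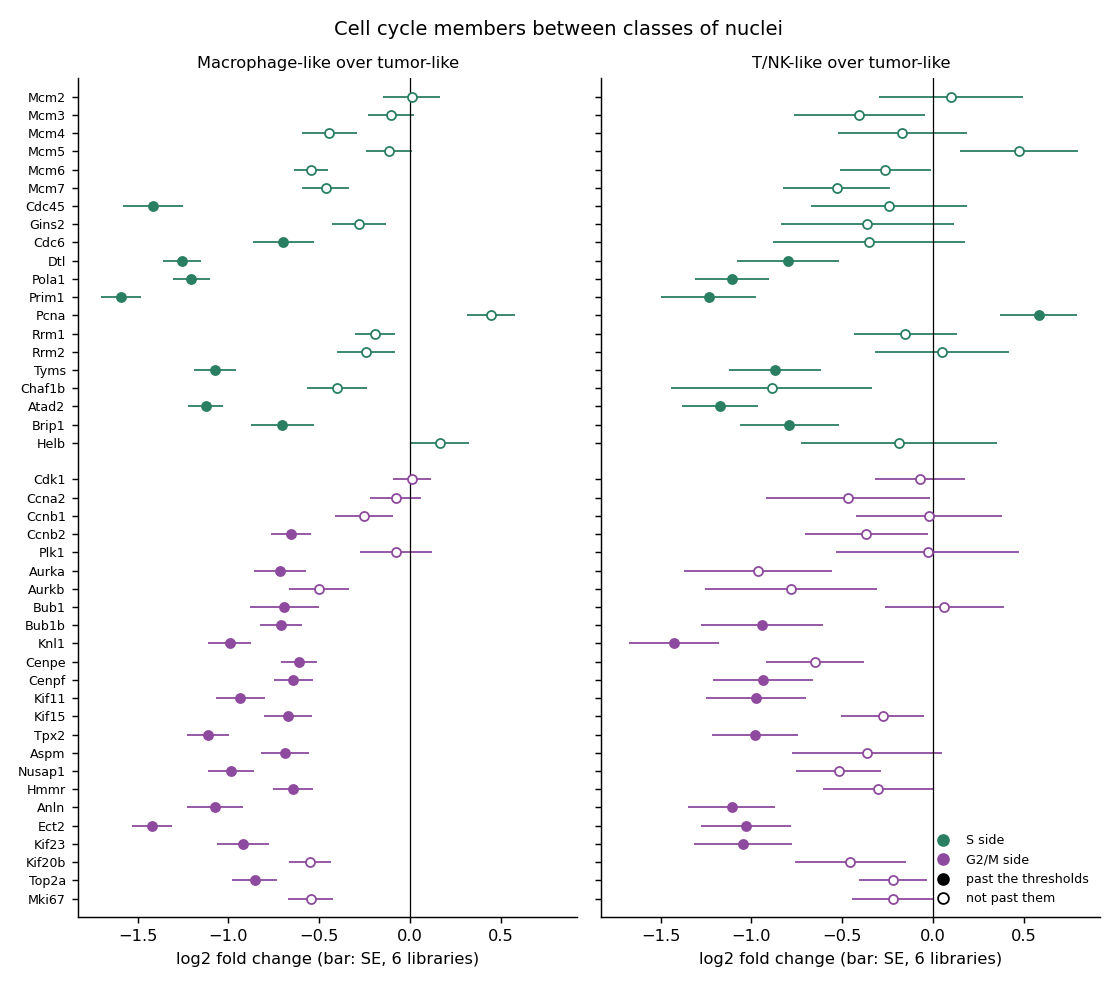
The log2 fold change of each member (rows) in macrophage-like (left) and T/NK-like (right) over tumor-like nuclei, with its SE over 6 libraries as a bar. Filled points passed both thresholds and open points did not. Filled points lie below 0 for 25 members on the left and 14 on the right, and Pcna at 0.58 is the filled point above 0.

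In T/NK-like against tumor-like nuclei 15 members were called, 14 lower and 1 higher, where 32.2% of 11271 genes were called, 19.7% lower and 12.5% higher. The median of all genes was itself -0.24 here and -0.03 under scaling by library totals alone, which called 12 members, and the medians of -0.36 on the S side and -0.49 on the G2/M side are to be read beside it. Thinned counts, with far fewer T/NK-like UMIs, called 6. Leaving out KO replicate 3, the library with the most T/NK-like nuclei, called 10. Knl1 had the lowest value (263 ± 41.3 CPM in tumor-like and 97.4 ± 21.9 in T/NK-like nuclei, log2 -1.43, SE 0.25), followed by Prim1 (-1.24), Atad2 (-1.18), Anln (-1.11) and Pola1 (-1.11). Kif23, Ect2, Tpx2, Kif11, Bub1b, Cenpf, Tyms, Dtl and Brip1 were called lower with values of -1.05 to -0.79. Pcna was called higher (144 ± 29.99 against 209 ± 92.6 CPM, log2 0.58, SE 0.21, edgeR adjusted p 0.0204), though in only 4 of 6 libraries. This call just met the fold threshold, and it was lost in 11 of 17 alternatives, among them DESeq2 (0.53, adjusted p 0.148), sums of thinned nuclei (0.0060), the stricter class rule (0.29) and the fits without CO replicate 3 (0.45), KO replicate 1 (0.48), KO replicate 2 (0.56) or KO replicate 3 (0.37). The calls of Brip1, Bub1b and Dtl were lost in 5 alternatives each. Mcm5 (0.47, SE 0.32) and Mcm2 (0.10, SE 0.40) had the next highest values. Top2a, at 542 ± 130 and 459 ± 95.8 CPM, did not pass (-0.22, SE 0.19).

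Between macrophage-like and T/NK-like nuclei 23 members had enough counts, and 3 were lower in macrophage-like nuclei, where 33.2% of 4241 genes were called, 12.8% lower and 20.4% higher. The share of members called lower was thus close to that of all genes. Top2a stood at 593 ± 119 CPM in T/NK-like and 327 ± 73.1 in macrophage-like nuclei, lower in 6 of 6 libraries (log2 -0.86, SE 0.16, edgeR adjusted p 6.1e-05). Nusap1 (-0.70, SE 0.24) and Kif15 (-0.66, SE 0.24) were the others, and Knl1 (0.19), Cenpf (0.06) and Kif23 (-0.09) had the highest values and were not called. The Top2a call held in every alternative run, whereas those of Nusap1 and Kif15 were lost with DESeq2, with no low-count filter and with a stricter filter on nuclei, among others. The count moved between 1 and 5 members over the alternatives, with 5 without CO replicate 1 and 5 without KO replicate 1.

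Gene span, the annotated length from start to end with introns, was compared with the members' values after these were seen, and long and short members differed in their values. It ran from 4.15 kb for Pcna to 327 kb for Pola1, with a median of 28.7 kb. Of the 22 members with longer spans 20 were called lower in macrophage-like than in tumor-like nuclei, and of the 22 with shorter spans 5 were. In T/NK-like nuclei the counts were 12 and 2. Over all genes of any span 27.1% were called lower in macrophage-like and 19.7% in T/NK-like nuclei. The shares among all long and all short genes were not counted, so the split is not shown to be particular to the members. Summed over the 22 longer members, the macrophage-like level was 0.494 times the tumor-like level (log2 -1.02 ± 0.24, SD, n = 6), and summed over the 22 shorter members it was 0.730 times (log2 -0.45 ± 0.17), both lower in 6 of 6 libraries. For T/NK-like nuclei the sums were 0.688 (log2 -0.54 ± 0.23, 6 of 6 libraries) and 0.958 times (log2 -0.06 ± 0.15, 4 of 6). These sums were not tested. Prim1 (14870 bases) and Tyms (15416 bases) were called lower in both classes although their spans are among the shorter ones. Whether intronic reads were counted is not given in the sources used here, and the part of span in these differences was not tested.

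The libraries also differed in how much of their RNA came from long genes. In tumor-like nuclei the 22 longer members supplied 65.6, 67.0 and 68.5% of all member UMIs for CO replicates 1 to 3 and 68.4, 78.1 and 74.2% for KO replicates 1 to 3. Over 9442 genes with a mean of at least 10 CPM, genes above the median span supplied 55.4, 58.2 and 67.4% for CO and 57.5, 76.2 and 72.3% for KO. KO replicates 2 and 3, in which tumor markers outside the tumor-like class were most frequent, thus had the largest long-gene shares, and CO replicate 3 came next.

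In tumor-like nuclei 0 of 13064 genes passed the KO against CO test, which is 0% of all genes, and no member was called (edgeR, 851 genes at an unadjusted p under 0.05, of which 4 were members). DESeq2 called 27 genes and no member. The smallest edgeR adjusted p was 0.595. Log2 fold changes of the members ran from -0.59 (Mcm7) to 0.70 (Pola1), with medians of -0.10 on the S side and 0.15 on the G2/M side beside -0.02 over all genes. Across the 44 members Spearman's rho between log2 fold change and gene span was 0.855, and across 9442 genes it was 0.678 for the log2 ratio of mean CPM. These are correlations across genes of the same 6 libraries, and genes are not independent replicates. Of the 22 longer members 18 had values above 0, against 5 of the 22 shorter ones.

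**Figure D5:**
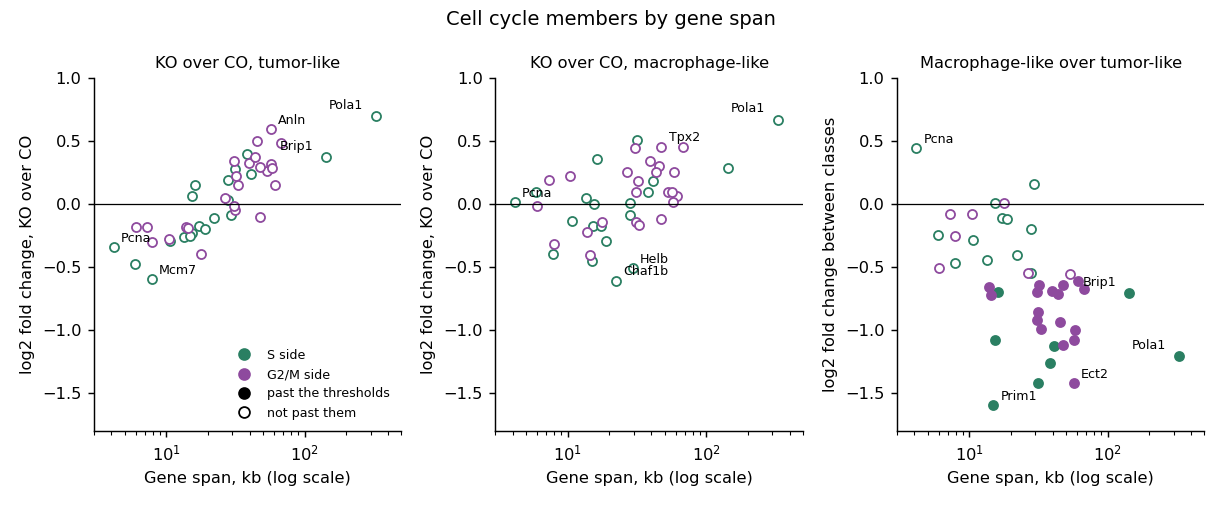
The log2 fold change of each member (vertical axis) against its gene span in kb on a log scale (horizontal axis) for KO over CO in tumor-like nuclei (left) and in macrophage-like nuclei (middle), and for macrophage-like over tumor-like nuclei (right). Filled points passed both thresholds, which no member did for KO over CO. On the left the points climb with span, from -0.34 for Pcna to 0.70 for Pola1.

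Pola1 stood at 381, 421 and 479 CPM in tumor-like nuclei of CO replicates 1 to 3 and at 412, 938 and 727 in those of KO replicates 1 to 3. KO replicate 1 lay within the CO range and the other KO libraries far above it (log2 0.70, SE 0.31). Mcm7, with a span of 7840 bases, stood at 128, 111 and 80.3 CPM for CO and at 116, 40.9 and 54.8 for KO (log2 -0.59, SE 0.39). Here too KO replicate 1 was like the CO libraries, and KO replicates 2 and 3 lay below them. Anln, with 181, 179 and 170.3 CPM for CO against 207, 315 and 278 for KO, had the lowest unadjusted p of the members (log2 0.60, SE 0.19, edgeR p 0.0167, adjusted p 0.595). Kif11 (0.51, SE 0.19), Bub1b (0.38, SE 0.15) and Kif15 (0.49, SE 0.20) were the other members with an unadjusted p under 0.05.

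By role, all 6 spindle members had values above 0 (0.15 to 0.51) and all 7 mitotic kinases and cyclins values below 0 (-0.39 for Cdk1 to -0.18), and none was called. The kinases and cyclins have spans of 6018 (Aurkb) to 17793 bases (Cdk1), and the spindle members spans of 32028 (Hmmr) to 67688 bases (Kif15). The part of span in these signs was not tested. In 8 members, all on the G2/M side and all with KO higher, the CO and KO libraries did not overlap (Kif20b, Knl1, Tpx2, Ect2, Bub1b, Kif15, Kif11 and Anln). All 8 also belong to the members with longer spans, from 43381 (Bub1b) to 67688 bases (Kif15). The side and the span of these 8 cannot be told apart here. Of all genes tested, of any span and in either direction, 12.5% had no overlap. Among the S-side members with the most counts, Atad2 had 0.24 (SE 0.19), Tyms 0.07 (SE 0.14), Brip1 0.38 (SE 0.25), Prim1 -0.25 (SE 0.20) and Pcna -0.34 (SE 0.20). Top2a was 505 ± 147 CPM for CO and 489 ± 115 for KO (log2 -0.05, SE 0.29), Nusap1 had 0.15 (SE 0.19) and Rrm2 -0.47 (SE 0.40). Without KO replicate 1, 2556 genes were called, beside 13064 tested in the fit of all 6 libraries, so calls were not particular to the members. Of the 44 members 5 passed, Pola1 (0.96), Anln (0.75) and Kif11 (0.66) higher and Mcm7 (-1.16) and Gins2 (-0.66) lower. The remaining KO libraries are those with the largest long-gene shares, whose part in these calls was not tested.

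The summed sides did not pass a test between KO and CO. In thinned tumor-like nuclei the S side was 2.23 ± 0.105 UMIs per 1000 for CO against 2.43 ± 0.132 for KO (difference 0.203, exact permutation p 0.2, n = 3 each), and the G2/M side 2.56 ± 0.442 and 2.75 ± 0.249 (p 0.7 by the same exact test). In macrophage-like nuclei the S side was 1.35 ± 0.0936 and 1.33 ± 0.0461 (exact p 0.9) and the G2/M side 1.66 ± 0.147 and 1.64 ± 0.537 (exact p 1). In T/NK-like nuclei the S side was 2.13 ± 0.531 and 1.75 ± 0.252 and the G2/M side 2.56 ± 0.327 and 2.18 ± 0.233 (exact p 0.3 for both). With 3 against 3 libraries the exact test cannot go below 0.1, and adjusted over the 6 relations these p were 0.6 or higher. Shares of tumor-like nuclei with at least 2 UMIs of a side were 58.6 ± 3.64% for CO against 62.3 ± 2.30% for KO on the S side (exact p 0.2), and 48.1 ± 6.15% against 51.2 ± 4.10% on the G2/M side (exact p 0.6). The share of T/NK-like nuclei with G2/M-side counts was 48.6 ± 7.83% for CO against 39.3 ± 2.14% for KO, a difference of -9.29 percentage points, and its exact p of 0.1 is the smallest possible (adjusted p 0.6). At 500 UMIs this difference had the other sign, at 6.20 percentage points.

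In macrophage-like nuclei 0 of 9318 genes passed for KO against CO, again 0% (edgeR, 443 genes at an unadjusted p under 0.05, none of them a member), and DESeq2 called 2 genes and no member. Member values ran from -0.61 (Chaf1b, SE 0.39) to 0.67 (Pola1, SE 0.33). Pola1 stood at 141, 168 and 241 CPM for CO and at 168, 399.5 and 323 for KO, again with KO replicate 1 inside the CO range. Cdc45 (0.51, SE 0.40), Tpx2 (0.46, SE 0.25), Helb (-0.51, SE 0.37) and Prim1 (-0.45, SE 0.29) were the other extremes, and Top2a was at 0.10 (SE 0.26). The CO and KO libraries did not overlap for 6 members, 4 with KO higher and 2 with KO lower (Chaf1b, Prim1, Ccna2, Aspm, Tpx2 and Cdc45), against 10.8% of all genes. Spearman's rho with gene span was 0.501 across the 44 members, and across 9326 genes it was 0.437 for the log2 ratio of mean CPM. Without KO replicate 1, 1424 genes were called, beside 9318 tested in the fit of all 6 libraries, so calls were not particular to the members. Of the 44 members 3 passed, Pola1 (0.99), Mcm7 (-0.99) and Aurka (-1.60). In KO replicate 2, the library with the fewest macrophage-like nuclei, Mcm7 and Aurka each stood at 8.59 CPM, which is 2 UMIs.

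T/NK-like nuclei had enough counts for 7 members, and 0 of 1798 genes passed (0%, edgeR, 86 genes at an unadjusted p under 0.05, none a member), with 0 by DESeq2. Values ran from -0.53 (Mcm6) to 0.23 (Pcna), with Atad2 at -0.44, Top2a at -0.43, Nusap1 at -0.34 and Pola1 at -0.14. Top2a was the only member whose libraries did not overlap, with KO lower, against 10.8% of genes. Whether the KO to CO change differed between macrophage-like and tumor-like nuclei was tested as an interaction, in which 1 of 12503 genes (0.008%) and no member passed (edgeR, 821 genes and no member at an unadjusted p under 0.05; 4 genes and no member by DESeq2). Member differences ran from -0.47 (Chaf1b), -0.38 (Anln) and -0.35 (Helb) to 0.40 (Ccna2), 0.48 (Plk1) and 0.53 (Rrm2, SE 0.29).

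Further cell cycle genes from the other lists were compared between the classes in the same fits, and lower, below and higher here mean called at both thresholds. The counts are to be read beside the shares over all genes. Against tumor-like nuclei these were 27.1% lower and 25.5% higher in macrophage-like nuclei, and 19.7% lower and 12.5% higher in T/NK-like nuclei. In macrophage-like against tumor-like nuclei 22 of 35 other S-phase genes and 30 of 50 other G2/M genes were lower, among them the polymerase Pole (-1.49) and the spindle proteins Psrc1 (-2.73) and Ckap2 (-1.83). Only Gas2l3 (0.71) was called higher on these lists, and Ube2c (0.47) and Gmnn (0.42) had values above 0 that missed the fold threshold. The 23 regulators split, with 12 lower, such as the phosphatase Cdc25b (-2.34) and the repressor E2f7 (-2.17), and 3 higher, which included the D-type cyclin Ccnd2 (2.63) and its partner kinase Cdk6 (0.72). In T/NK-like against tumor-like nuclei 13 of 35 other S-phase genes, with Gins1 (-2.64) the lowest, and 22 of 50 other G2/M genes were lower and 1 of the latter was higher. Of the 23 regulators 7 were lower and 3 higher, the latter close to the share over all genes. Among them Ccnd2 (2.98) and Ccnd3 (2.37) were higher and E2f1 (-2.42) and Cdk2 (-2.16) lower. Macrophage-like nuclei were below T/NK-like nuclei for 3 of 11 other S-phase genes, among them Usp1 (-0.84) and Blm (-0.82), for 3 of 21 other G2/M genes, among them Lbr (-0.85) and Smc4 (-0.77), and for 2 of 8 regulators, Ccnd3 (-2.21) and Cdk6 (-1.03), counts to be read beside the 12.8% of all genes that were lower. In KO against CO 0 genes of these lists passed in any of the 3 classes (edgeR).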

How the data were processed

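Nuclei of 3 CO and 3 KO tumors were sequenced with the 10x Genomics 3′ chemistry, in which each captured RNA molecule carries a UMI. The authors aligned the reads to GRCm38 with Cell Ranger and deposited 1 matrix of UMI counts per library, with no pooling. Version 3.0.2 is named in the submitters' processing notes and 3.1.0 per the file headers. Whether intronic reads were counted is not given in the sources used here. The methods also name SoupX, which removes ambient RNA, but the deposited counts are whole numbers. Seurat 5.2.1 served the authors' later steps, whose results were not used here. Samples were grouped by their titles.

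The members and all gene lists were chosen with earlier results of these data known. Nuclei with 100 to 7500 genes and under 20% mitochondrial UMIs were kept (18014 of 18865 barcodes). The automatic threshold of Scrublet (scanpy 1.11.5) marked 11 nuclei (0.0611%), so the highest scores were removed instead, 0.8% per 1000 barcodes of a library (500 nuclei). Classes required, per 1000 UMIs, at least 8 tumor, 4 macrophage or 4 T/NK marker UMIs from at least 3 distinct markers (of 16, 18 and 19), with limits on the markers of other classes, and these minimums were set after marker sums per library were seen. Each nucleus was thinned to 1000 UMIs for levels and shares of a side. A further 36 S-phase genes, 50 G2/M genes and 23 regulators formed lists for comparison.

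UMI counts were summed per library and class and tested over all genes with edgeR 4.0.16 (quasi-likelihood, TMM scaling, low-count filter, R 4.3.3), with the library as a block between classes, and p-values were adjusted by Benjamini-Hochberg. CPM values were scaled by TMM within each comparison, so a member's CPM in tumor-like nuclei differs slightly between comparisons. The edgeR steps were tested on simulated counts with the same dispersion for every gene, a simpler setting than these libraries. That test does not show how small a change the KO against CO comparisons could detect. One value per library was tested by exact permutation (groups) or exact sign-flip (classes), two-sided. Named with values were the 6 members of each side with the most UMIs in tumor-like nuclei, the 3 largest and 3 smallest fold changes per comparison and every called member. Other members named were chosen after their values were seen. Alternatives were DESeq2 1.42.0, other scaling, filters and depths, each library left out and, chosen after seeing the data, a stricter class rule, no upper gene limit, no shared barcodes, library totals only and the loss of KO replicates 2 and 3. Gene spans were read from GENCODE vM21 (GRCm38), and promoter windows from RefSeq (GRCm38.p6). The windows of Tpx2, Ccna2, Mcm4, Gins2, Atad2 and Aurkb were not analysed here.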

Additional observations from a re-analysis of the deposited data

How the results depend on the processing

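Of 467 alternative values of 32 results, 408 were taken as the same. For levels, shares and ratios, this means that the direction and side of the threshold were kept or the move was smaller than the spread between libraries. Counts of called members were taken as the same where they were equal or of similar size. The sign changed in 41 of the 467. Only 1 of these is called reversed here, as its result was past the threshold in the main or the alternative fit. Thinning to 500 UMIs gave KO minus CO differences of 0.0962 (S, macrophage-like) and 0.389 (G2/M, T/NK-like) UMIs per 1000 and of 6.20 percentage points (G2/M share, T/NK-like), T/NK-like S-side log2 ratios of -0.44 to tumor-like and 0.28 to macrophage-like nuclei, and 0.21 for total UMIs (G2/M, tumor-like). Thinning to 2000 UMIs, which left 2 to 8 T/NK-like nuclei per library, gave -9.26 and 30.6 percentage points (G2/M share, macrophage-like and T/NK-like), log2 ratios of -0.71 (S) and -0.41 (G2/M) for macrophage-like over tumor-like, -0.42 (G2/M) for T/NK-like over tumor-like, 0.12 (S) and, reversed, -0.0037 (G2/M) for T/NK-like over macrophage-like, -0.30 for the S to G2/M ratio of macrophage-like minus tumor-like nuclei and 0.0769 for total UMIs (S, macrophage-like). The stricter class rule gave KO minus CO differences of -0.185 (S, macrophage-like) and 0.103 (S, T/NK-like) and of 5.79 (S) and -16.5 (G2/M) percentage points for T/NK-like shares. No upper gene limit gave 0.75 for total UMIs (G2/M, tumor-like), and a limit of at least 1 UMI gave 4.20 percentage points (S share, T/NK-like). Without KO replicates 2 and 3 together the log2 ratios were -0.73 (S) and -0.57 (G2/M) for macrophage-like over tumor-like and 0.61 (S) and 0.48 (G2/M) for T/NK-like over macrophage-like, too few libraries to pass. With 1 library left out, where 5 libraries cannot go below an exact p of 0.0625, these ratios ran from -0.85 to -0.77, -0.79 to -0.63, 0.44 to 0.56 and 0.46 to 0.63. Members called between macrophage-like and T/NK-like nuclei were 1 with DESeq2, with no low-count filter, with thinned sums, with the stricter filter on nuclei and with the stricter class rule, and 2 to 5 with 1 library left out. Thinned sums called 6 members between T/NK-like and tumor-like nuclei, and leaving out 1 library called 10 to 18. Members called for KO against CO ran from 0 to 5 (tumor-like) and 0 to 3 (macrophage-like), both maxima without KO replicate 1, where 2556 and 1424 genes passed in place of 0. Same-numbered libraries had correlations of their deviations in tumor-like nuclei of 0.52, -0.23 and 0.41. With 3 libraries per group these values cannot decide whether replicate numbers pair the libraries. With the replicate number as a block, 0 members passed in any KO against CO comparison and the S-side difference in tumor-like nuclei was 0.203 as without it, while the interaction called 110 genes in place of 1. DESeq2 called 27 genes in tumor-like nuclei in place of 0. Where a cause is not given above, the cause was not tested. The depth limits T/NK-like nuclei most, with 7 of 44 members tested between KO and CO.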
